A study of Mus musculus with 18 samples.

Results

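The 33 genes described here encode enzymes of cholesterol and fatty acid synthesis and the proteins that switch those enzymes on. They were listed by name from the known pathways, not by a measured threshold, and all 33 symbols were found among the 51912 genes of the count table through the GRCm38 annotation. RNA was sequenced from splenic B cells of C57BL/6 mice in 18 libraries that form 6 groups of 3 biological replicates, with littermates providing both genotypes. The genotypes were wild type (WT) and Sh3gl1-/-, in which the gene for the endocytic protein endophilin A2 is deleted throughout the animal and not in B cells alone. In each genotype, untreated transitional B cells (sorted as B220+ CD93+, the newest arrivals from the bone marrow) and untreated follicular B cells (the main recirculating mature population) were sorted, and follicular cells were also cultured with CD40 ligand (CD40L), the T cell signal that activates B cells. The labels give 14 hours of CD40L, while the study's text also speaks of an overnight culture and of a longer time. There was no group of follicular cells cultured without CD40L, so the effects of CD40L and of culture itself cannot be told apart, and the ages and sexes of the mice were not used here.

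Cells make cholesterol from acetyl-CoA through the mevalonate pathway, which yields isoprenoid units that are joined into squalene, closed into lanosterol and trimmed to cholesterol. The pathway is governed by SREBP-2 (Srebf2), a membrane-bound transcription factor that SCAP (Scap) escorts from the endoplasmic reticulum to the Golgi for cleavage when sterols are scarce, while INSIG proteins (Insig1, Insig2) hold the complex back when sterols are plentiful. SREBP-1 (Srebf1) acts mainly on fatty acid genes such as Fasn and the desaturases. Activated lymphocytes are known to need new membrane lipid as they enlarge and divide.

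Levels are given as CPM, the reads assigned to a gene relative to the scaled size of its library, and comparisons between genes use TPM, the transcript abundance scale that also corrects for transcript length. Total estimated counts ran from 12404688 to 18366078 per library, and the scaled library sizes from 12511568 to 17066609. Relative to the scaled sizes, 3 counts, taken as the lower limit of detection, correspond to 0.176 to 0.240 CPM, and this limit covers counting error only. Changes are log2 fold changes with their standard error (SE) from edgeR's quasi-likelihood test, and a gene was called changed at an adjusted p (Benjamini-Hochberg over all genes tested) under 0.05. The deleted gene was checked first. Sh3gl1 was at 40.4, 34.8 and 29.8 CPM in the WT transitional libraries, 34.2, 35.2 and 33.6 CPM in the WT follicular libraries and 57.9, 53.6 and 56.9 CPM after CD40L. In the 9 Sh3gl1-/- libraries it lay between 0.0716 and 1.76 CPM, and the log2 difference was -6.18 (SE 0.29) in transitional and -5.44 (SE 0.29) in CD40L-cultured cells. The Sh3gl1-/- follicular libraries held 2, 3 and 1 counts of it, at or below the limit of detection, and no fold is given there. Cd93, which encodes the sorting marker of transitional cells, was 2.33 (SE 0.20) higher on the log2 scale in WT transitional than in WT follicular cells. The pan-B-cell genes Ms4a1, Cd79a, Cd79b, Pax5, Ighm, Ighd and Cd22 were above 0 in every library. Of 7 activation genes, 6 rose with CD40L in WT cells and 7 of 7 in Sh3gl1-/- cells, Fas among them by 4.80 (SE 0.23) and 3.91 (SE 0.22) on the log2 scale.

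Of the 33 genes the desaturase gene Scd1 had the highest mean TPM in resting B cells, and the mevalonate enzyme gene Fdps had it after CD40L. Mean TPM in WT follicular cells was 127 for Scd1, 67.7 for Ebp, 61.3 for Fdps and 53.8 for Msmo1, whereas Acaca, Elovl6, Fads1 and Fads2 stood at the bottom with 2.69, 1.96, 0.267 and 0.0533 TPM. After CD40L the WT order was led by Fdps at 391 TPM, with Idi1 and Msmo1 both at 190 TPM and thus not separable, then Hmgcs1 at 131 TPM, and Scd1 had dropped to 49.5 TPM. The summed TPM of all 33 genes was 672.8, 832.5 and 752.5 in the WT follicular libraries and 1488, 2065 and 2225 in the WT CD40L libraries. In Sh3gl1-/- cells the sums were 639, 749.8 and 637.6 before and 2628, 2017 and 2597 after CD40L. Transitional cells summed to 860.3, 905.5 and 799.1 TPM in WT and to 655.7, 707.3 and 622.7 TPM in Sh3gl1-/-. CD40L-cultured libraries were above every other library in both genotypes, and the 3 WT transitional sums lay above the 3 Sh3gl1-/- transitional sums. These RNA samples are bulk, so a change in the number of cells of one kind and a change in the RNA per cell cannot be told apart.

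**Figure D1:**
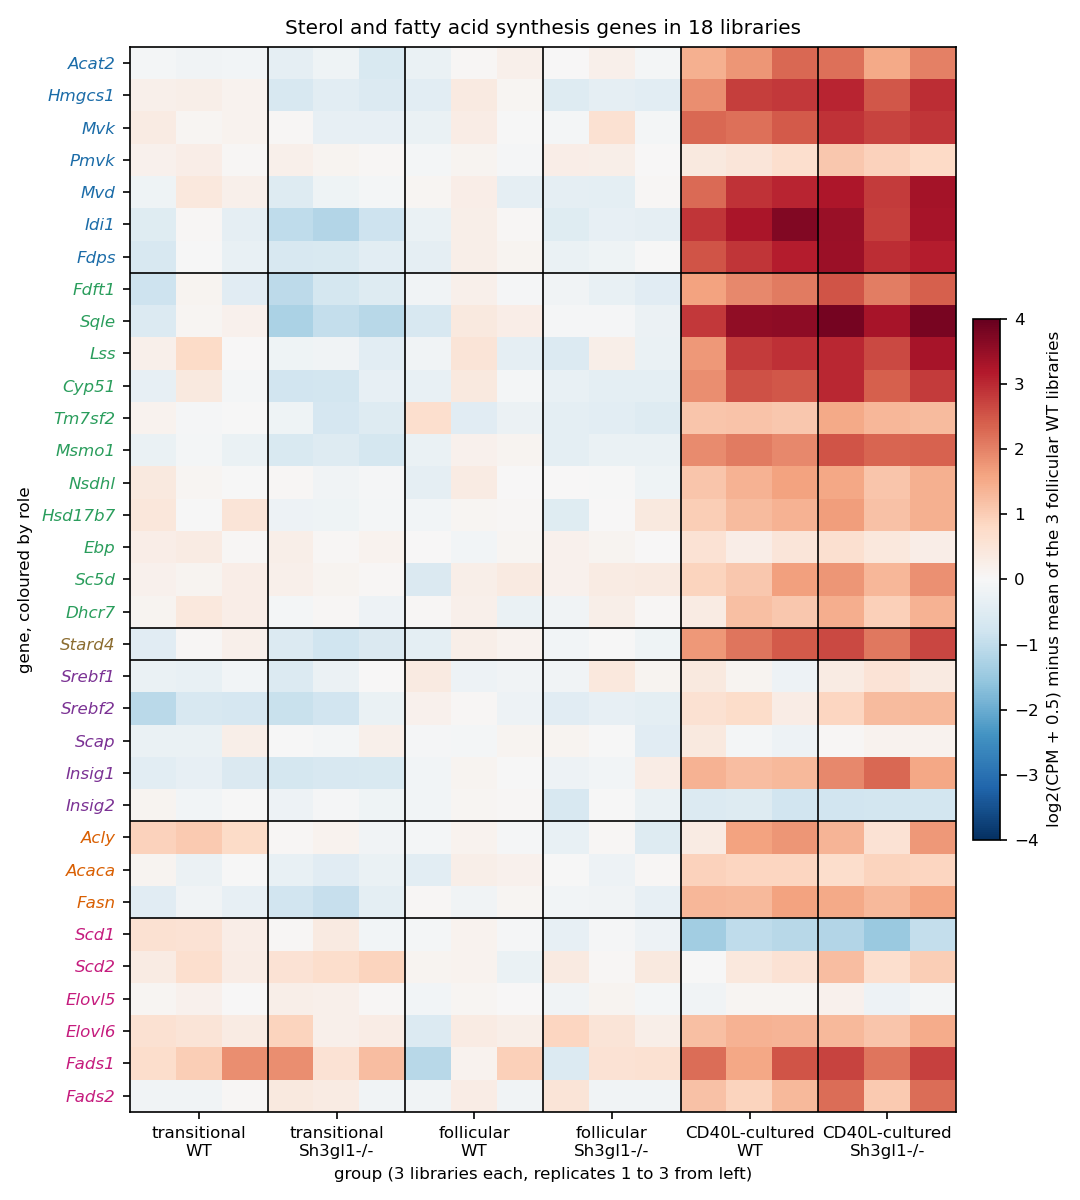
Heat map of the 33 genes (rows, coloured by role) in the 18 libraries (columns, 3 per group). Colour is log2(CPM + 0.5) minus the mean of the 3 WT follicular libraries, from blue (lower) to red (higher). The red block covers the 6 CD40L-cultured libraries for nearly all genes, Scd1 and Insig2 are blue there, and the Sh3gl1-/- transitional columns are bluer than the WT ones for Hmgcs1, Idi1 and Sqle.

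The first comparison asked how the genes responded to CD40L in WT follicular cells. Of the 33 genes, 27 rose, 2 fell (Scd1 and Insig2) and 4 did not pass the test, against 23.6% of all 14460 genes tested that rose and 25.7% that fell (49.3% in either direction). Their median change was 1.33 on the log2 scale, beside -0.08 for all genes. Every enzyme gene of the mevalonate steps (7 of 7) and of the squalene and sterol steps (11 of 11) rose, as did the 3 fatty acid synthesis genes and the sterol transfer gene Stard4.

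Among the mevalonate genes, Idi1 (isopentenyl diphosphate isomerase) was at 43.6, 62.3 and 54.1 CPM in WT follicular cells and at 383, 515 and 687 CPM after CD40L, a rise of 3.28 (SE 0.22, adjusted p = 6.94e-08). Fdps, which makes farnesyl diphosphate, went from 47.8, 73.3 and 67.2 to 354, 451 and 553 CPM, a rise of 2.82 (SE 0.19, adjusted p = 7.13e-08). Mvd, the decarboxylase that yields isopentenyl diphosphate, went from 11.5, 13.1 and 8.43 to 53.8, 84.2 and 93.9 CPM, a rise of 2.78 (SE 0.23, adjusted p = 5.09e-07). For all 3 genes the lowest CD40L library was more than 4-fold above the highest resting one, and WT CD40L replicate 1 was the lowest of its group. Hmgcs1 (HMG-CoA synthase) rose by 2.49, Mvk by 2.38, Acat2 by 1.85 and Pmvk by 0.51, so the weakest response in this branch was that of phosphomevalonate kinase. Reads of Acat2 may in part belong to its near-identical copy Acat3.

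Among the squalene and sterol genes, Msmo1 (a sterol demethylating oxidase) had the lowest p of the 33 genes and ranked 121 of the 14460 genes by p. It was at 69.6, 95.5 and 90.6 CPM before and 316, 356 and 325 CPM after CD40L, a rise of 1.93 (SE 0.12, adjusted p = 3.62e-08). Sqle (squalene epoxidase, a rate-controlling step) went from 14, 28.9 and 26.3 to 160, 265 and 272 CPM, a rise of 3.30 (SE 0.27, adjusted p = 3.44e-07) that differed from that of Idi1 by less than its SE. Fdft1, which makes squalene, went from 30.3, 38.2 and 32 to 103, 127 and 142 CPM, a rise of 1.86 (SE 0.15, adjusted p = 4.27e-07). In none of the 3 genes did the groups overlap. The other 8 genes of the branch rose by between 0.42 (Ebp, a sterol isomerase) and 2.54 (Lss, lanosterol synthase), with Cyp51 (lanosterol demethylase) at 2.28. Fdft1 overlaps the abundant gene Ctsb on the other strand, Cyp51 overlaps Akap9, Mvd overlaps Gm20388, the regulator gene Srebf1 overlaps Rai1 on the other strand, and Tm7sf2 lies over Vps51 on the same strand, and the strand setting of the counting is not given in the sources used here, so part of their reads may be shared.

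**Figure D2:**
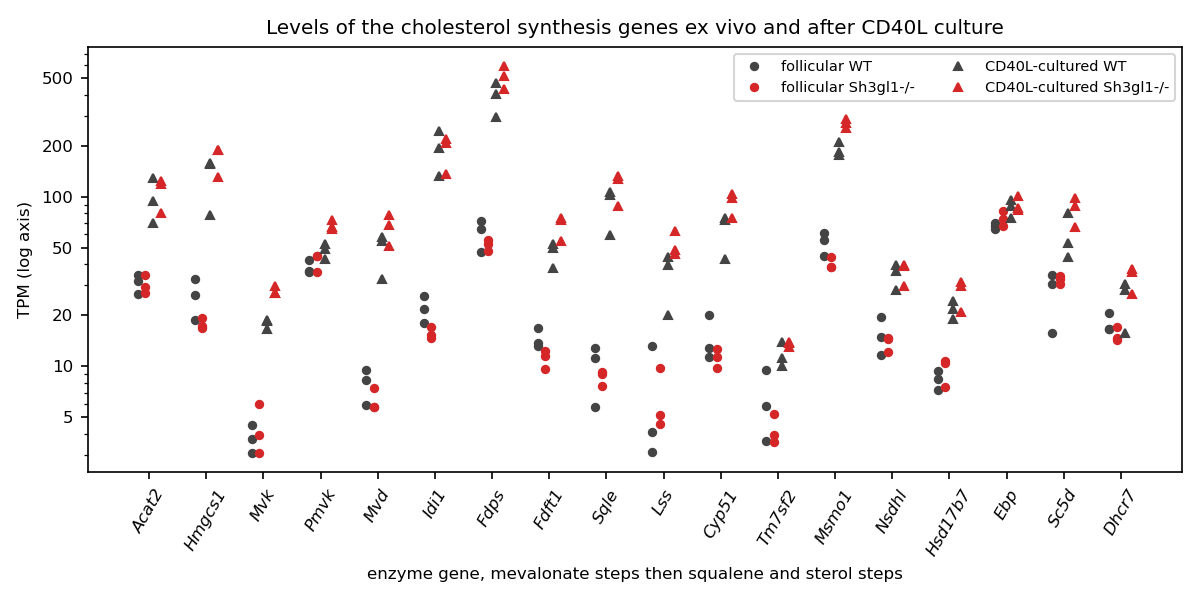
TPM (log axis) of the 18 enzyme genes of the mevalonate and the squalene and sterol steps in follicular cells before (circles) and after CD40L (triangles), WT in grey and Sh3gl1-/- in red, 1 point per library. The triangles of Idi1, Fdps, Sqle and Msmo1 lie far above their circles, while those of Pmvk and Ebp lie close to them.

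The regulators moved apart from one another. Srebf2 was at 68.6, 62.3 and 52 CPM in WT follicular cells and at 92.3, 101 and 74.2 CPM after CD40L, a rise of 0.52 (SE 0.15, adjusted p = 0.0102) with no overlap between the groups. Without WT follicular replicate 3 its adjusted p was 0.052. Insig1, itself a target of SREBP, went from 15.9, 18.3 and 17 to 45.3, 40.9 and 42.7 CPM, a 2.47-fold rise (SE 0.18 on the log2 scale, adjusted p = 5.42e-05), and all 3 CD40L libraries were above all resting ones. Its relative Insig2 went from 58.7, 67 and 65.3 to 43.7, 44.5 and 37 CPM (log2 change -0.64, SE 0.15, adjusted p = 0.00246). All 3 CD40L libraries were below all resting ones. Srebf1 was at 17, 11.3 and 12 CPM before and 17.5, 14.3 and 11.4 CPM after (log2 change 0.07, SE 0.21), and Scap was at 13, 12.7 and 14.4 before and 17.5, 12.7 and 11.5 CPM after (0.03, SE 0.19). In both genes the groups overlapped and the change did not pass the test.

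Of the fatty acid genes, Fasn (fatty acid synthase) went from 22.8, 19.8 and 23 to 55.9, 54.8 and 67.9 CPM, a rise of 1.42 (SE 0.13, adjusted p = 1.13e-06). Acly, which supplies cytosolic acetyl-CoA, was at 109, 128 and 114 CPM before and 146, 357 and 396 CPM after CD40L, a rise of 1.33 (SE 0.32, adjusted p = 0.00347). All 3 CD40L libraries of both genes were above the resting ones, but for Acly WT CD40L replicate 1 was far below the other 2. Acaca, acetyl-CoA carboxylase, rose by 0.84 (SE 0.17). Scd1, the stearoyl-CoA desaturase with the most RNA of the 33 genes in resting cells, went the other way, from 472, 550 and 482 to 190, 247 and 234 CPM (log2 change -1.19, SE 0.14, adjusted p = 9.09e-06). Its paralog Scd2 was at 31.5, 32.2 and 24.3 CPM before and 28.8, 39.4 and 43.5 CPM after (0.31, SE 0.18, adjusted p = 0.174), with overlapping groups, and reads of the 2 paralogs could be shared in part. The elongase gene Elovl6 rose by 1.32 (SE 0.26), and Elovl5 had a log2 change of -0.02 (SE 0.12). Fads1 and Fads2, desaturases of polyunsaturated fatty acids, also rose, but from very little. Fads1 was at 0, 0.68 and 1.58 CPM before and 4.49, 2.61 and 5.63 CPM after. Fads2 did not exceed 0.301 CPM in any library of untreated cells and reached 0.535 to 0.857 CPM in the WT CD40L libraries, so no fold is given for it, and its call was lost without WT CD40L replicate 3 or without WT follicular replicate 1 or 3.

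The same comparison in Sh3gl1-/- follicular cells gave 28 genes that rose, 2 that fell (again Scd1 and Insig2) and 3 that did not pass (Srebf1, Scap and Elovl5), against a background of 20.6% of genes that rose and 21.8% that fell (42.4% together). The median change was 1.66, beside -0.03 for all genes. Msmo1 again had the lowest p, with 64.2, 70.5 and 70.4 CPM before and 488, 422 and 437 CPM after CD40L, a rise of 2.70 (SE 0.13, adjusted p = 2.67e-09). Fdps went from 51.6, 55.1 and 61.1 to 669, 483 and 554 CPM (3.33, SE 0.20), Fdft1 from 29.9, 26.9 and 24.5 to 192, 139 and 176 CPM (2.62, SE 0.16) and Idi1 from 37.9, 42 and 40.9 to 586, 364 and 518 CPM (3.58, SE 0.23). The groups were widely separated in each of these genes. Mvd went from 8.34, 8.17 and 11.3 to 106, 78.3 and 113 CPM (3.40, SE 0.24), and Cyp51 from 32.7, 31 and 30.6 to 328, 215 and 281 CPM (3.11, SE 0.22). Sqle rose by 3.79 (SE 0.27), or 13.8-fold. Sh3gl1-/- CD40L replicate 2 was the lowest of its group for all 7 of these genes.

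Among the Sh3gl1-/- regulators, Srebf2 went from 44.6, 47.7 and 46.5 to 111, 147 and 150 CPM, a rise of 1.54 (SE 0.15, adjusted p = 2.74e-06). Insig1 went from 14.9, 15.8 and 21.3 to 66, 85.8 and 51.3 CPM (1.95, SE 0.19). Insig2 fell (log2 change -0.48, SE 0.15, adjusted p = 0.0168), from 40.2, 63 and 53.3 to 37, 38.2 and 38.2 CPM. The groups were apart in all 3 genes, but for Insig2 the gap was narrow, since 1 resting library stood at 40.2 CPM, and its call was lost without CD40L replicate 1 or 3 or without follicular replicate 2 or 3 (adjusted p up to 0.144). Srebf1 was at 12, 17.9 and 14.4 CPM before and 16.8, 19.4 and 17 CPM after, and Scap was at 14.4, 13.2 and 9.66 CPM before and 13.9, 14.9 and 14.7 CPM after, both with overlap. Fasn went from 20.3, 19.6 and 17.4 to 63.4, 53.9 and 65.8 CPM (1.66, SE 0.13). Scd1 fell (log2 change -1.02, SE 0.14, adjusted p = 4.81e-05), from 401, 486 and 434 to 222, 180 and 256 CPM. Scd2 rose here by 0.69 (SE 0.18, adjusted p = 0.00772), from 37.1, 30.2 and 38.4 to 68.6, 46.3 and 57.7 CPM. Whether Scd2 responded differently in the 2 genotypes was tested as part of the next comparison.

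**Figure D3:**
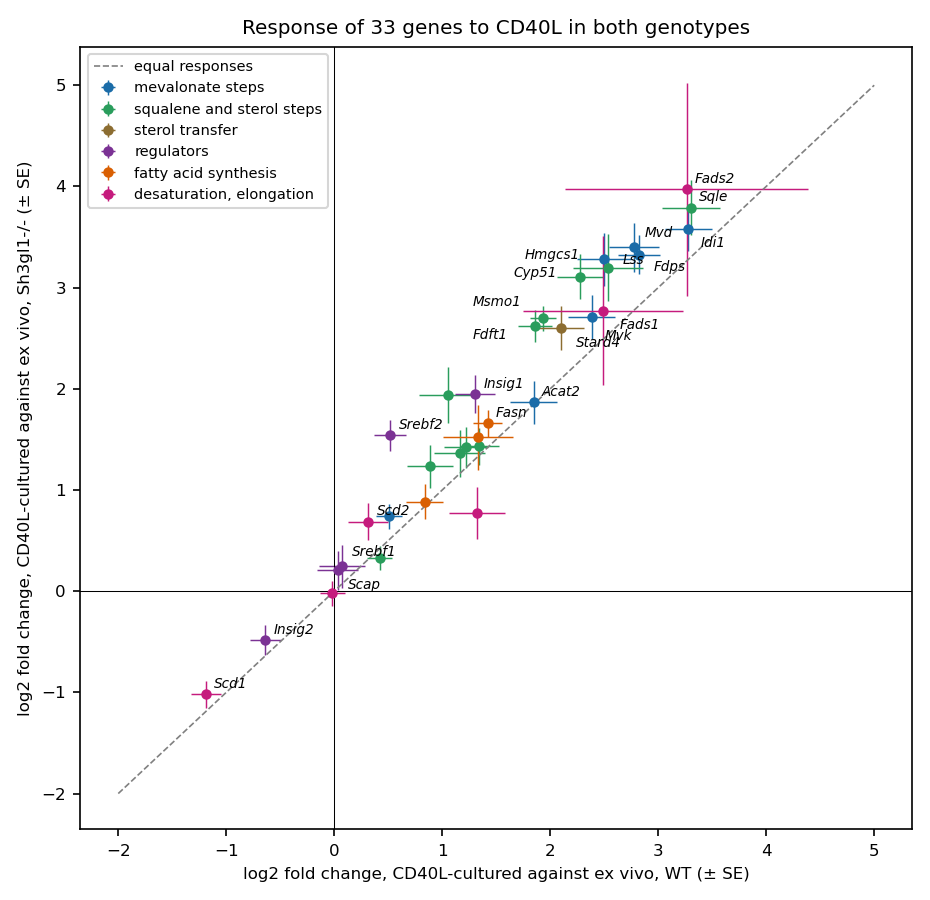
Log2 fold change with CD40L in WT (horizontal axis) and Sh3gl1-/- follicular cells (vertical axis), 1 point per gene with SE bars, coloured by role. The dashed line marks equal responses. Srebf2 lies above it at 0.52 and 1.54, Scd1 and Insig2 are the 2 genes that fell in both genotypes, and the wide bars of Fads1 and Fads2 reflect their low counts.

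The difference between the 2 CD40L responses was tested as an interaction. None of the 33 genes and none of all 14460 genes passed edgeR's quasi-likelihood test (0%), while 1278 genes (8.84%) and 7 of the 33 had an unadjusted p under 0.05. The lowest p among the 33 belonged to Srebf2, whose response was 1.02 (SE 0.21) larger on the log2 scale in Sh3gl1-/- cells (unadjusted p = 0.000267, adjusted p = 0.322). Msmo1 followed at 0.76 (SE 0.17, unadjusted p = 0.000472, adjusted p = 0.455), and Scd2 stood at 0.37 (SE 0.26, adjusted p = 0.709). The estimate was above 0 for 30 of the 33 genes, with a median of 0.30 beside 0.01 for all genes, but estimates from the same libraries are not independent. DESeq2 called Srebf2 and Msmo1 among 30 genes in all, and without a filter on low counts edgeR called these and Cyp51, Fdft1 and Hmgcs1 among 210 genes.

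Markers of other cell types moved with CD40L as well. In WT cells all 5 erythroid, 7 of 7 T cell and 5 of 5 NK cell genes fell, as did 5 of 7 neutrophil genes and 5 of 7 macrophage genes, whereas Adgre1 rose. The erythroid sum was 5040, 4732 and 1850 TPM in the WT follicular libraries and 9.70, 453.5 and 41.9 TPM after CD40L, with Hbb-bs or Hbb-bt the most abundant gene. The T cell sums went from 146.4, 187.4 and 180.3 to 44.0, 67.3 and 52.6 TPM (led by Lck), the NK cell sums from 58.1, 44.0 and 116.9 to 4.46, 3.80 and 2.54 TPM (led by Nkg7 or Gzma), and the neutrophil sums from 335.3, 141.9 and 134.2 to 75.2, 38.4 and 15.2 TPM (led by S100a8). The macrophage sums went from 109.6, 116.2 and 139.5 TPM, led by Lyz2, to 33.3, 46.2 and 43.9 TPM, led by Adgre1, and C1qa and C1qb were at or near 0 there. The B cell sum itself went from between 15675 and 17002 TPM to between 8379 and 9682 TPM. The same lists moved in Sh3gl1-/- cells, where 5 of 5 erythroid, 7 of 7 T cell, 5 of 5 NK cell, 6 of 7 neutrophil and 5 of 7 macrophage genes fell and Adgre1 rose. There the erythroid sum went from 8421, 3998 and 11358 to 76.9, 137.0 and 38.2 TPM and the T cell sum from 294.6, 231 and 240.2 to 71.7, 60.1 and 66.7 TPM. No gene of these lists was called in the difference between the 2 responses. The part of these other cells in the values of the 33 genes was not tested.

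The promoters of the genes were examined for the letters to which SREBP and its partner factors are known to bind. RefSeq start sites on GRCm38.p6 gave a window of 250 bases upstream for 26 of the 33 genes. The classic sterol regulatory element of SREBP, searched as TCACNCCAC on both strands, was found in 1 of the 26 genes (Hmgcs1, 137 bases upstream of the start), beside 1.22% of 27025 genes in all. The CCAAT box, the site of the SREBP partner NF-Y, was found on either strand in 20 of 26 genes (76.9%, beside 37.5% of all genes), in 9 of 9 squalene and sterol genes, 5 of 6 mevalonate genes and 4 of 5 regulators. GGGCGG, the GC box of Sp1, was found in 21 of 26 (80.8%, beside 35.4%) and the E-box CANNTG in 16 of 26 (61.5%, beside 69.3%). The CCAAT and GC boxes thus stood in the windows of a larger share of these genes than of all genes, and the E-box did not. All genes here means every gene with a window, whether or not B cells express it. No background of expressed genes or of promoters of like base content was used. A gene counted when any of its windows matched, and the 26 genes had 34 windows, beside 32851 windows for the 27025 genes. What the larger shares reflect was not tested. A match is a description of letters, not a site shown to be bound, and its absence concerns only the window read. The windows below were chosen because they show the sterol element (Hmgcs1), a gene that rose strongly with CD40L (Mvd), the fatty acid synthase gene (Fasn) and one of the genes that fell (Insig2), and because they hold no annotated exon. Capitals mark the sterol element and CCAAT or its reverse complement ATTGG, and each sequence reads 5′ to 3′ on the strand of its gene.
Hmgcs1, chr13:119690101-119690350, plus strand: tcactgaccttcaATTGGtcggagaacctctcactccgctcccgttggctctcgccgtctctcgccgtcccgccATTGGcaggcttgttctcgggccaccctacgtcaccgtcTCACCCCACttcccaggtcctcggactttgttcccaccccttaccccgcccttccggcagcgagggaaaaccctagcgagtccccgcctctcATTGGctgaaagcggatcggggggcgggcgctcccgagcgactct
Mvd, chr8:122443423-122443672, minus strand: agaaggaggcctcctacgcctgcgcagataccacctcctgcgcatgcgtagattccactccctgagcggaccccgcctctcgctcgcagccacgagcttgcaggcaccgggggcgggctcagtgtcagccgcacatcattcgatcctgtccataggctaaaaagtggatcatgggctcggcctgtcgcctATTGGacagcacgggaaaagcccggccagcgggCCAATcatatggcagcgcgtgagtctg
Fasn, chr11:120824548-120824797, minus strand: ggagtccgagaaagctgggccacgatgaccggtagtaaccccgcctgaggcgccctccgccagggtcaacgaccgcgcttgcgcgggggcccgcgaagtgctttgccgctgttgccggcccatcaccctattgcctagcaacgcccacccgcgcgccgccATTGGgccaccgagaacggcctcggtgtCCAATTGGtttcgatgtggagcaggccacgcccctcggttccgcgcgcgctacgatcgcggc
Insig2, chr1:121332590-121332839, minus strand: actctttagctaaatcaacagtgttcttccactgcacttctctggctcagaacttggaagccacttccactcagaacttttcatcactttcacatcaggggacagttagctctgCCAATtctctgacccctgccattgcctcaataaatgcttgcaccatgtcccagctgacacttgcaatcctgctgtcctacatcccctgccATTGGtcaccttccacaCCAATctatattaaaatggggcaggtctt
Hmgcs1 thus carries 3 CCAAT boxes beside the sterol element, and the Insig2 window shown, from a gene that fell, carries 3 as well, while the other 2 Insig2 windows in the table hold none.

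The other genes of sterol and fatty acid handling were counted from lists of the same kind. Of 17 tested genes of sterol uptake, efflux and storage, 3 rose and 7 fell with CD40L in each genotype. The called share was 58.8% in each, beside 49.3% of all genes in WT and 42.4% in Sh3gl1-/- cells. Of all genes, 23.6% rose and 25.7% fell in WT, and 20.6% rose and 21.8% fell in Sh3gl1-/- cells. Estimates lay below 0 for 13 of the 17 genes in WT and 12 in Sh3gl1-/- cells, and no test of the list was run. Abcg1, which exports cholesterol from the cell, was at 271, 229 and 195 CPM in WT follicular cells and at 14.4, 12 and 9.24 CPM after CD40L (log2 change -4.31, SE 0.18), and in Sh3gl1-/- cells it went from 345, 287 and 316 to 7.84, 6.31 and 6.45 CPM (-5.54, SE 0.19). Mylip, the ubiquitin ligase that degrades lipoprotein receptors, went from 107, 102 and 101 to 5.32, 4.55 and 5.08 CPM in WT (-4.40, SE 0.16) and from 109, 96 and 113 to 6.5, 6.47 and 4.2 CPM in Sh3gl1-/- cells (-4.23, SE 0.16). No CD40L library came near a resting one in either gene. Abca1, another exporter and like Abcg1 and Mylip a target of the sterol-sensing LXR receptors, fell in Sh3gl1-/- cells (log2 change -2.94, SE 0.54), and in WT it went from 93.6, 102 and 96 to 36.1, 11.2 and 3.37 CPM, a wide spread among the 3 CD40L libraries. Cyp27a1, an oxysterol-making enzyme, was at 17.2, 14.8 and 13.2 CPM in WT follicular cells and at 0.759, 0.334 and 0.0612 CPM after CD40L. Those that rose in both genotypes were Scarb1 (0.93 and 1.05), Lipa (0.35 and 0.32) and Lrp8, a lipoprotein receptor gene that stayed under 4 CPM throughout.

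Among 9 genes of SREBP processing and degradation none rose, 4 fell in WT and 3 in Sh3gl1-/- cells (44.4% and 33.3% called). Rnf145 (-1.08 in WT, -1.26 in Sh3gl1-/-), a ubiquitin ligase of the sterol-sensing machinery, fell in both. Of 15 genes of the isoprenoid side branches 3 rose in WT and 5 in Sh3gl1-/- cells and 3 fell in each (40% and 53.3% called), with Ggps1, which makes geranylgeranyl diphosphate, lower by -0.69 and -0.58. Of 17 tested other fatty acid genes 10 rose and 2 fell in each genotype (70.6% called, above the 49.3% and 42.4% of all genes, with no test of the list), with Hsd17b12 (0.82 and 0.97) and Elovl1 (0.78 and 0.82), both of fatty acid elongation, higher, and with Acss2 (-1.15 and -0.84), which activates acetate, lower. Of 12 tested genes of fatty acid oxidation 4 rose in each genotype, among them Decr1 (1.08 and 0.96), and 1 fell in WT and 3 in Sh3gl1-/- cells (41.7% and 58.3% called; Cpt1a in both, with Hadhb and Ppard in the latter). Cpt1a, the gate to mitochondrial oxidation, fell by 2.64 and by 2.08 on the log2 scale, from 43.9, 41.5 and 40.3 to 8.63, 7.36 and 4.65 CPM in WT. The called shares of the SREBP processing, isoprenoid and oxidation lists lay on either side of the background or near it.

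The next comparison set transitional against follicular cells, the younger against the mature resting stage. Here 32 of the 33 genes were tested, since Fads2 did not pass the filter on low counts. In WT, 3 were higher and 2 lower in transitional cells, against 14.2% of 14580 genes higher and 11.7% lower, a share of called genes below the background of 25.9%. Acly was at 221, 243 and 197 CPM in WT transitional cells, above the 109, 128 and 114 CPM of follicular cells without overlap (0.91, SE 0.13, adjusted p = 0.000261). Scd1 was at 770, 745 and 605 CPM, likewise above all follicular libraries (0.49, SE 0.12, adjusted p = 0.0107), and Scd2 at 36.9, 46.3 and 35.6 CPM (0.42, SE 0.15, adjusted p = 0.0461). Srebf2 was lower, at 28.2, 38.7 and 38.1 CPM against 52 CPM or more in follicular cells (-0.81, SE 0.17, adjusted p = 0.00321). Insig1 was lower at 12.6, 13.6 and 11.4 CPM (-0.46, SE 0.16, adjusted p = 0.0446). The calls of Acly, Scd1 and Srebf2 held without any 1 of the 6 libraries, that of Insig1 was lost without each of them and that of Scd2 without 4 of them. The enzyme genes of the mevalonate and sterol branches had no call in either direction. The replicate numbers paired the WT transitional with the follicular libraries, and with the number as a block Fdps was called lower as well (adjusted p = 0.013). The other regulators did not pass the test, with Srebf1 at 10.9, 10.6 and 12.3 CPM, Scap at 11, 11 and 15.8 CPM and Insig2 at 68.1, 59 and 62.4 CPM in WT transitional cells, and the same was true of Fasn at 15.6, 19.6 and 17.4 CPM, although its groups did not overlap.

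In Sh3gl1-/- cells none of the 32 genes was called higher and 3 were lower in transitional cells, against 6.71% of genes higher and 3.7% lower (10.4% together). Insig1 was at 10.4, 10.8 and 10.9 CPM (-0.68, SE 0.16, adjusted p = 0.0115), Sqle at 8.85, 11.1 and 9.99 CPM (-1.02, SE 0.25, adjusted p = 0.0153) and Idi1 at 26.1, 23.2 and 29.4 CPM (-0.61, SE 0.15, adjusted p = 0.0195). In each of the 3 genes every transitional library was below every follicular one, where Sqle was at 21.1, 21.2 and 18.8 CPM. The replicate numbers paired the transitional with the follicular libraries, and with the number as a block 9 genes were called, the same 3 together with Acat2, Fdps and Stard4 (lower) and Acly, Scd1 and Scd2 (higher). Without Sh3gl1-/- transitional replicate 1, or without follicular replicate 3, 1 gene was called. Plasma cell RNA stood apart in these libraries, with sums of 2512, 1008 and 3924 TPM in Sh3gl1-/- transitional against 132.8, 142.2 and 154.8 TPM in follicular cells, nearly all of the former Jchain, which was higher (4.49, SE 0.45) while the other 4 genes of the list were not called. In WT the sums were 642.5, 578 and 417.8 against 122.8, 134.9 and 73.8 TPM, and Jchain was higher as well. Of the T cell genes 7 of 7 had an estimate below 0 in Sh3gl1-/- cells, 6 at an unadjusted p under 0.05 and 1 called. Transitional replicates 1 and 3 had the most erythroid and plasma cell RNA. Without them replicate 2 was the 1 transitional library left, so no call is read from that fit. In replicate 2, Insig1 was at 10.8, Sqle at 11.1 and Idi1 at 23.2 CPM, each below every follicular library, and the estimate of Scd1 was 0.56. The part of this RNA in the remaining values was not tested. Of the genes without a call, Srebf1 was at 8.96, 11.3 and 13.4, Srebf2 at 32.3, 35.3 and 50.6, Scap at 13.2, 12.5 and 15.3, Insig2 at 55.7, 61.9 and 56.3 and Fasn at 12.5, 11.2 and 16.4 CPM in Sh3gl1-/- transitional cells. The difference between the genotypes in this comparison was not called for any of the 32 genes, while 10 genes of 14580 (0.0686%) were. Its lowest p were those of Acly (-0.64, SE 0.18, unadjusted p = 0.00366, adjusted p = 0.17) and Sqle (-0.88, SE 0.34, unadjusted p = 0.0222, adjusted p = 0.276), and with the replicate block Acly passed (adjusted p = 0.0307).

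Of 17 tested genes of sterol uptake, efflux and storage, 3 were higher and 4 lower in WT transitional cells (41.2% called, beside 25.9% of all genes), and 4 higher and 1 lower in Sh3gl1-/- cells (29.4%, beside 10.4%). No test of these lists was run. Nr1h3, which encodes LXR alpha, was at 6.63, 10.3 and 8.21 CPM in WT transitional and at 0.778, 1.11 and 0.602 CPM in WT follicular cells (3.30, SE 0.41), and it was higher in Sh3gl1-/- transitional cells too (2.60, SE 0.38). Lipa, the lysosomal acid lipase that frees cholesterol from its esters, was higher by 0.71 and 0.88. Abca1 (-1.06, SE 0.16) and Mylip (-0.61, SE 0.09) were lower in WT transitional cells. All 7 macrophage genes were higher in WT transitional cells and 5 of 7 in Sh3gl1-/- cells, and their sum was 490.4, 575.3 and 496.7 TPM in the WT transitional libraries against 109.6, 116.2 and 139.5 TPM in the follicular ones, led by Lyz2. Nr1h3 and Lipa are also macrophage genes. The part of macrophage RNA in these values was not tested.

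The genotypes were then compared within each cell state. In transitional cells 4 of 32 genes fell in Sh3gl1-/- and none rose, against 2.48% of 13774 genes that fell and 1.26% that rose (3.73% together). Acly was at 221, 243 and 197 CPM in WT and at 120, 129 and 106 CPM in Sh3gl1-/- cells (log2 change -0.89, SE 0.11, adjusted p = 0.00869). Hmgcs1 was at 76.5, 79 and 73.8 CPM in WT and at 42.5, 49.7 and 45.1 CPM in Sh3gl1-/- cells (-0.74, SE 0.10, adjusted p = 0.00929). Both genes sat in tight groups with a clear gap. ATP citrate lyase makes acetyl-CoA and HMG-CoA synthase uses it, but Acat2, another early mevalonate gene, was not called. Sqle was at 14.9, 23.3 and 25 CPM in WT against 8.85, 11.1 and 9.99 CPM (-1.07, SE 0.21, adjusted p = 0.0308), a 2.11-fold difference. Idi1 was at 37.7, 54 and 41.2 CPM against 26.1, 23.2 and 29.4 CPM (-0.75, SE 0.15, adjusted p = 0.0333). Again no Sh3gl1-/- library reached the lowest WT one, though the WT values were more scattered. Msmo1, at 69.8, 80.2 and 69.8 CPM in WT and 55.3, 59.5 and 51.6 CPM in Sh3gl1-/- cells, missed the threshold (-0.40, SE 0.10, adjusted p = 0.0588).

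Most of the estimates lay below 0 in Sh3gl1-/- transitional cells, though not those of every branch. They were below 0 for 26 of the 32 genes, among them 7 of 7 mevalonate, 11 of 11 squalene and sterol and 3 of 3 fatty acid synthesis genes, but for only 3 of 5 regulators (median -0.01) and 1 of 5 tested desaturation and elongation genes (median 0.06). Over the 32 genes the median was -0.32 beside 0.02 for all genes, and estimates from the same libraries are not independent. In 14 genes all Sh3gl1-/- libraries were below all WT libraries, where 14.4% of all genes had that order, and in none were they all above (13.6% of all genes). An unadjusted p under 0.05 was found for 11 of the 32 genes, beside 21.8% of all genes. Scd1, at 512, 644 and 463 CPM against 770, 745 and 605 CPM in WT, overlapped (-0.39, adjusted p = 0.137), and Scd2, at 43.5, 47.2 and 54.2 CPM against 36.9, 46.3 and 35.6 CPM, had an estimate above 0 (0.29, adjusted p = 0.243). The regulators Srebf1 (-0.01), Srebf2 (0.17), Scap (0.12), Insig1 (-0.22) and Insig2 (-0.12) did not pass the test. Of the 17 tested genes of sterol uptake, efflux and storage 2 rose, Mylip and Abca1, and none fell, beside the 1.26% of all genes that rose. The LXR target Abcg1 overlapped between the genotypes and did not pass the test (0.42, SE 0.19, adjusted p = 0.229). Mylip was at 67.7, 65.8 and 70.4 CPM in WT and 107, 95.1 and 105 CPM in Sh3gl1-/- transitional cells (0.59, SE 0.09, adjusted p = 0.013). Abca1 was at 52.8, 49.5 and 37.7 CPM in WT and 102, 69.4 and 105 CPM in Sh3gl1-/- cells (0.98, SE 0.18, adjusted p = 0.0257), without overlap in either gene. Acsl5 (-0.54), which activates fatty acids, and Pggt1b (-0.59), a subunit of the geranylgeranyl transferase, fell.

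These calls rest on few libraries, and other RNA moved with them. Without Sh3gl1-/- transitional replicate 3, or in a fit of all 18 libraries together, none of the 4 calls held, and 2 held without Sh3gl1-/- replicate 1 or without WT replicate 2 or 3. The order of the libraries did not rest on Sh3gl1-/- replicate 3. In Sh3gl1-/- replicates 1 and 2, Acly was at 120 and 129, Hmgcs1 at 42.5 and 49.7, Sqle at 8.85 and 11.1 and Idi1 at 26.1 and 23.2 CPM, each below every WT library. All 5 erythroid genes rose, with sums of 4026, 5340 and 3094 TPM in WT and 11444, 5924 and 11879 TPM in Sh3gl1-/- transitional libraries, led by Hbb-bs. The plasma cell sums were 642.5, 578 and 417.8 TPM against 2512, 1008 and 3924 TPM, nearly all of it Jchain, the 1 of 5 genes on that list that rose, while Sdc1 and Prdm1 were not called. The neutrophil sums were 177.3, 101.7 and 122.3 TPM against 1066, 226.3 and 309.8 TPM, led by S100a8, with 2 of 7 genes called (Camp and Lcn2). No T cell gene was called, but 6 of 7 had an unadjusted p under 0.05, 5 of them above 0 without overlap and Lck, the most abundant, below 0, and the sums were 133.5, 146.0 and 154.6 against 183.0, 149.2 and 174.1 TPM. Of the 8 general B cell genes Ighd rose, and the 6 with an estimate below 0 all had an unadjusted p under 0.05. Of 7 activated B cell genes Cd86 was called lower (-0.47), and Fas and Nfkb2 (above 0) and Icam1 (below 0) had an unadjusted p under 0.05, with sums of 132.4, 136.7 and 139.6 against 126.6, 117.5 and 122.1 TPM. Of 7 macrophage genes Cd68, C1qa and C1qb had such a p and lay above 0, with none called and sums of 490.4, 575.3 and 496.7 against 789.7, 444.1 and 615.0 TPM, led by Lyz2 or C1qb. The transitional B cell list summed to 1387, 1473 and 1580 TPM in WT and to 879.6, 1245 and 718 TPM in Sh3gl1-/- libraries, led by Vpreb3, with Cd24a lower, and the marginal zone list to 869.5, 832 and 782.1 against 576.7, 532.8 and 536.1 TPM, led by Mzb1, with Cd1d1 and Mzb1 lower. Replicates 1 and 3 of the Sh3gl1-/- transitional group had the most erythroid and plasma cell RNA. With both left out, replicate 2 was the 1 library of the group, so calls are not given for that fit. In replicate 2, Acly was at 129, Hmgcs1 at 49.7, Sqle at 11.1 and Idi1 at 23.2 CPM, each below every WT library. Replicate 2 was not free of the other RNA, since its erythroid sum of 5924 TPM and its plasma cell sum of 1008 TPM were above those of every WT library. The part of the other cells in the remaining differences was not tested.

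**Figure D4:**
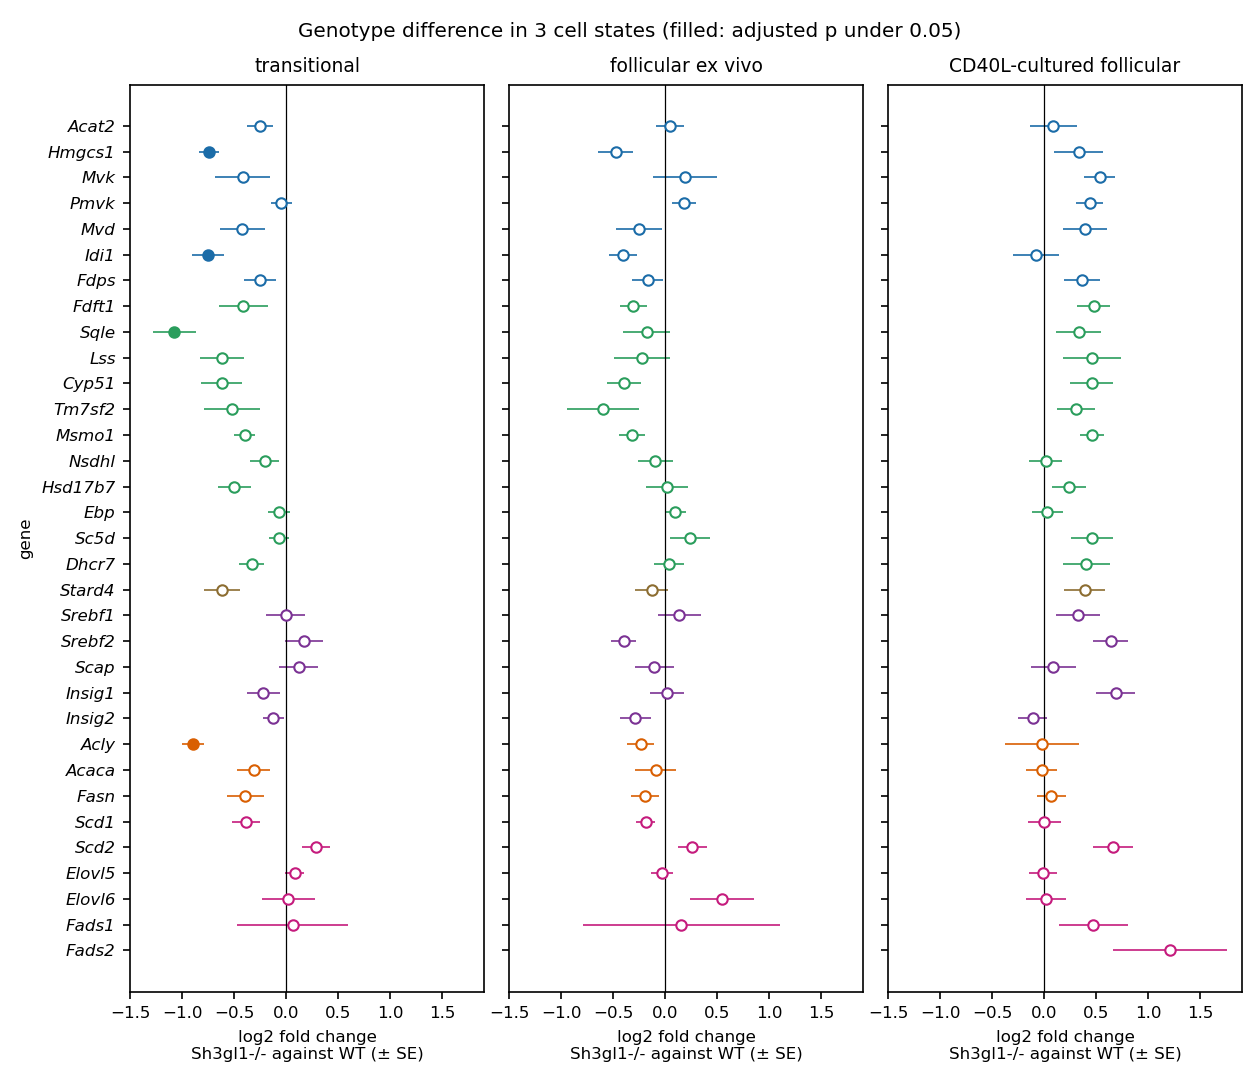
Log2 fold change of Sh3gl1-/- against WT for each gene in transitional, follicular and CD40L-cultured follicular cells, with SE bars and filled points for an adjusted p under 0.05. The filled points are Acly, Hmgcs1, Sqle and Idi1 in transitional cells, and most points lie left of 0 there and right of 0 after CD40L.

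In resting follicular cells none of the 32 tested genes was called between genotypes by edgeR, against 115 of 13610 genes in all (0.845%), and 6 had an unadjusted p under 0.05 beside 10.9% of all genes. The lowest p was that of Srebf2, at 68.6, 62.3 and 52 CPM in WT and 44.6, 47.7 and 46.5 CPM in Sh3gl1-/- cells without overlap (-0.40, SE 0.12, unadjusted p = 0.00528, adjusted p = 0.184). Idi1 followed, at 43.6, 62.3 and 54.1 against 37.9, 42 and 40.9 CPM (-0.41, SE 0.13, unadjusted p = 0.0101, adjusted p = 0.238). Hmgcs1, called in transitional cells, was at 49.4, 84.9 and 70 CPM in WT and 46, 51.2 and 49.6 CPM in Sh3gl1-/- follicular cells and overlapped. DESeq2 called none of the 32 genes either, and without the filter on low counts edgeR called Srebf2, Idi1 and Hmgcs1. On the lists of sterol handling Cyp27a1 fell, from 17.2, 14.8 and 13.2 CPM in WT to 3.61, 5.1 and 2.79 CPM in Sh3gl1-/- cells (-1.97, SE 0.25, adjusted p = 0.00405). Of the T cell markers Cd3e and Cd3d rose here, with list sums of 146.4, 187.4 and 180.3 TPM in WT and 294.6, 231 and 240.2 TPM in Sh3gl1-/- cells, led by Lck. No erythroid or neutrophil gene was called, but 5 of 5 and 6 of 7 had an unadjusted p under 0.05 with estimates above 0. The erythroid sums were 5040, 4732 and 1850 TPM in WT and 8421, 3998 and 11358 TPM in Sh3gl1-/- cells, led by Hbb-bs, and the neutrophil sums were 335.3, 141.9 and 134.2 against 1524, 331.0 and 527.3 TPM, led by S100a8. The macrophage list had no call either, with 4 of 7 genes at an unadjusted p under 0.05 and above 0. Among the B cell lists Cd24a of the transitional list fell, while Vpreb3 (-0.37) and Cd93 (0.71) had an unadjusted p under 0.05 in opposite directions, neither called, and the list summed to 696.2, 637.2 and 538.9 TPM in WT and 432.2, 448.1 and 442.9 TPM in Sh3gl1-/- cells without overlap, most of it Vpreb3. Of the marginal zone list 3 of 5 genes had an unadjusted p under 0.05, all below 0 and none called, with sums of 494.2, 542 and 620.5 against 421.3, 452.7 and 406.5 TPM, led by Mzb1. Of the 8 general B cell genes Ighd rose, and 6 had an estimate below 0 at an unadjusted p under 0.05. The part of these cells in the values of the 33 genes was not tested.

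After CD40L none of the 33 genes was called between genotypes, against 3 of 13188 genes (0.0227%), and 8 had an unadjusted p under 0.05 beside 7.07% of all genes. The estimates lay above 0 for 28 of 33 genes, with a median of 0.33 beside 0.01 for all genes. They come from the same libraries and are not independent of one another. The summed TPM of the 33 genes overlapped between the genotypes, at 1488, 2065 and 2225 in WT and 2628, 2017 and 2597 in Sh3gl1-/- libraries. WT replicate 1 and Sh3gl1-/- replicate 2 were the lowest of their groups. Neutrophil markers moved with genotype in these libraries, with none of 6 tested genes called but 6 of 6 above 0 at an unadjusted p under 0.05 (median 1.98), and with sums of 75.2, 38.4 and 15.2 TPM in WT and 332.5, 92.7 and 100.5 TPM in Sh3gl1-/- cells, led by S100a8. The T cell genes lay above 0 for 5 of 5 tested (median 0.88, 3 at an unadjusted p under 0.05), with sums of 44.0, 67.3 and 52.6 against 71.7, 60.1 and 66.7 TPM, led by Lck. The transitional B cell genes lay below 0 for 3 of 3 (median -0.90, 2 at such a p), with sums of 62.0, 66.5 and 40.0 against 25.3, 37.8 and 23.9 TPM, led by Cd24a. Of the marginal zone genes 4 of 5 lay below 0 (median -0.45, 3 at such a p), with sums of 508.7, 593.5 and 521.5 against 360.3, 398.5 and 428.4 TPM, led by Mzb1. No gene of these lists was called, and their part in the values of the 33 genes was not tested. Msmo1 had the lowest p, at 316, 356 and 325 CPM in WT and 488, 422 and 437 CPM in Sh3gl1-/- cells (0.46, SE 0.11, unadjusted p = 0.00264, adjusted p = 0.379). Srebf2 was at 92.3, 101 and 74.2 CPM in WT and 111, 147 and 150 CPM in Sh3gl1-/- cells (0.64, SE 0.17, unadjusted p = 0.00397, adjusted p = 0.455). In 7 genes all Sh3gl1-/- libraries were above all WT libraries (Mvk, Pmvk, Tm7sf2, Msmo1, Srebf2, Insig1 and Scd2), where 6.21% of all genes had that order. DESeq2 called none of the 33 genes, and without the filter on low counts edgeR called Srebf2, Insig1 and Scd2. No gene of the sterol handling and fatty acid lists was called here.

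Since the estimates pointed down in transitional and up in CD40L-cultured cells, the difference between these genotype effects was tested as an interaction, a comparison added after the values were seen. None of the 33 genes and none of all 14649 genes passed edgeR's test (0%), while 719 genes (4.91%) and 17 of the 33 had an unadjusted p under 0.05. The difference (CD40L minus transitional) was above 0 for 30 of the 33 genes, with a median of 0.53 beside 0.02 for all genes. This direction follows from the estimates that prompted the comparison. The counts and ranks given here therefore describe the same values and are no separate evidence. Msmo1 had the lowest p of all genes (0.87, SE 0.15, unadjusted p = 3.94e-05, adjusted p = 0.577), and Sqle ranked 9 (1.41, SE 0.32, unadjusted p = 0.000546, adjusted p = 0.672). DESeq2 called Msmo1 and Sqle among 10 genes, and edgeR without the filter called 8 of the 33 among 111 genes.

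**Figure D5:**
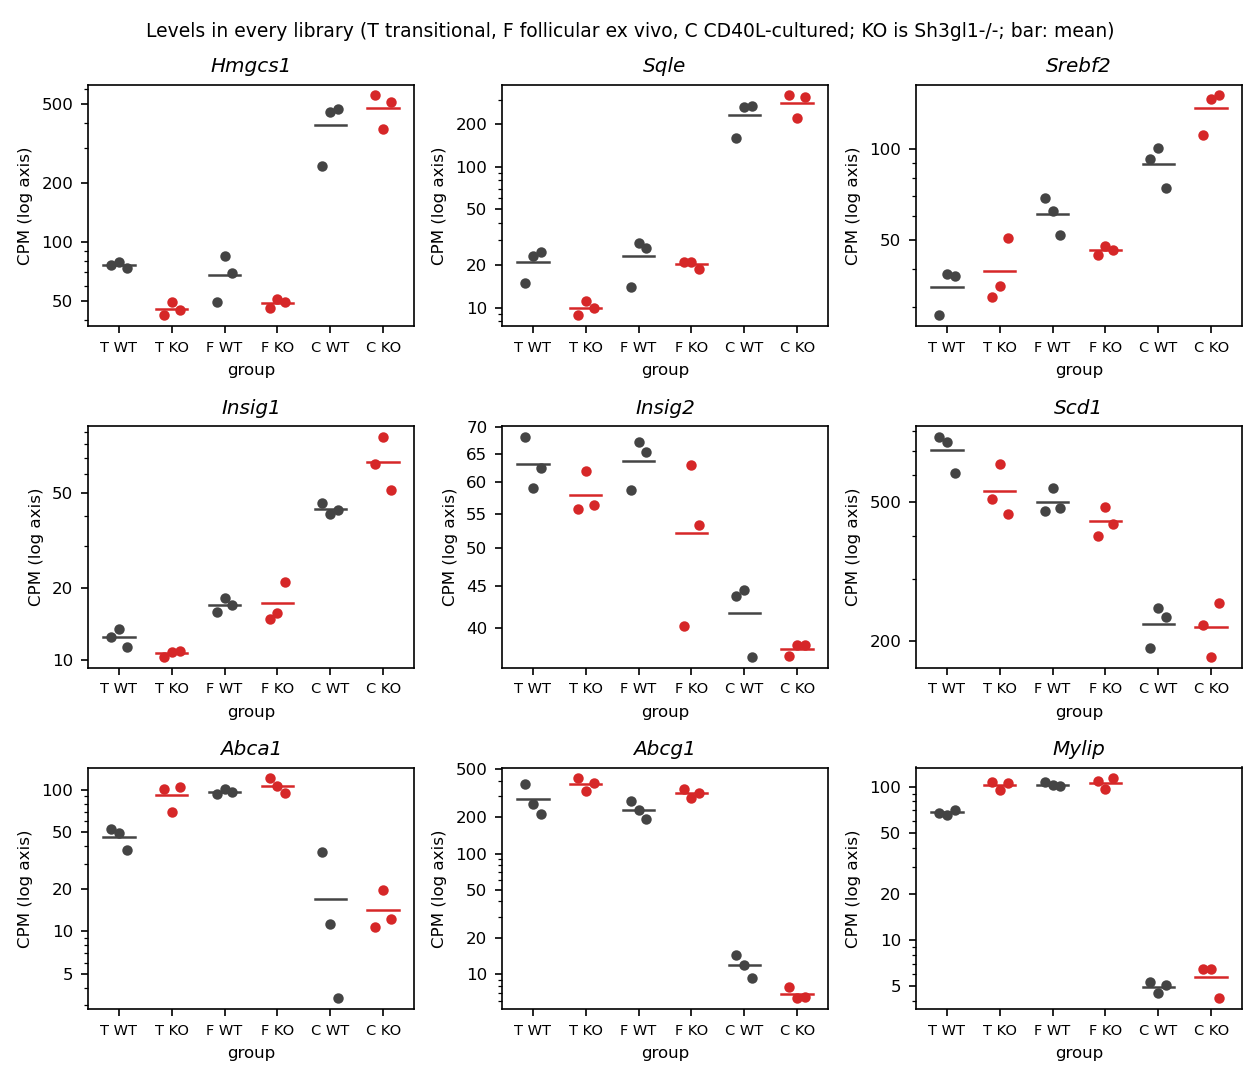
CPM in every library (log axis) for 6 of the 33 genes and 3 sterol handling genes in transitional (T), follicular (F) and CD40L-cultured follicular (C) cells, WT in grey and Sh3gl1-/- in red, with a bar at the group mean. Hmgcs1, Sqle, Srebf2 and Insig1 are highest after CD40L, Insig2, Scd1, Abca1, Abcg1 and Mylip have their lowest group means there, and the Sh3gl1-/- transitional points lie below the WT points for Hmgcs1 and Sqle and above them for Mylip and Abca1.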

How the data were processed

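RNA from the 18 sorted or cultured B cell samples was sequenced from polyA-selected, stranded libraries per the labels. The submitters' processing notes name cutadapt 1.9.1, STAR 2.5.2a, RSEM 1.3.0 and GRCm38, whereas the methods of the study name other kits and aligners, and the strand setting of the counting is not given in the sources used here. The authors deposited RSEM expected counts, TPM and FPKM per gene. The expected counts were rounded to whole numbers for testing, the TPM were used for levels between genes and for sums over lists, and the FPKM were not used. All 54 value columns were matched to samples, and 51633 of 51912 gene IDs had a symbol. Replicates of 1 group differed by more than sampling noise (chi-square per degree of freedom 9.25 or more). The labels speak of biological replicates from littermates, without naming the animal behind each library.

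Genes were tested with edgeR 4.0.16 in R 4.3.3 (TMM scaling, filterByExpr by group, quasi-likelihood fit and test) with 1 coefficient per group. The CD40L responses were fitted on the 12 follicular libraries, transitional against follicular cells on the 12 untreated libraries, and genotype on the 6 libraries of each cell state, and p-values were adjusted over all genes tested. The fits were tested on simulated data with known changes. DESeq2 1.42.0, other scaling and filters, a fit of all 18 libraries, a replicate block and leaving out libraries were the alternatives. Every one of the 33 genes was counted. Values in every library were given for the regulators, Fasn, Scd1, Scd2, Sh3gl1, and up to 6 called genes of lowest p per direction and comparison, or the 2 of lowest p where none was called. At most 3 called genes per direction were named from each list of sterol handling, fatty acid and isoprenoid genes. The 33 genes, the other lists and the markers were chosen with earlier results of these data known.

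Replicate numbers paired transitional with follicular libraries (correlations of deviations from the group means 0.173, 0.266 and 0.376 in WT and 0.298, 0.413 and 0.216 in Sh3gl1-/-) and WT follicular with WT CD40L libraries (0.252, 0.235 and 0.354). The numbers did not pair Sh3gl1-/- follicular with CD40L libraries, where the correlations were 0.212, 0.091 and -0.007. With 3 against 3 samples an exact permutation test of a single value cannot give a p below 0.1, so none was used.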

Additional observations from a re-analysis of the deposited data

How the results depend on the processing

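No call among the 33 genes changed sign under any alternative run. The CD40L responses were steady, with 27 to 30 genes called in WT and 27 to 29 in Sh3gl1-/- cells when each library was left out (5981 to 7296 and 5080 to 5974 of all genes), and the replicate block changed neither count. The comparison of stages in WT gave 3 to 5 genes (2444 to 3324 of all genes), 3 in a fit of all 18 libraries, 5 with DESeq2, 4 without a filter and 6 with the replicate block, which added Fdps (lower, adjusted p = 0.013). Ebp, Fdft1, Fdps and Msmo1, not called there, each gained a call on leaving out 1 library. In Sh3gl1-/- it gave 1 to 4 genes (986 to 1351), 7 with DESeq2, 9 without a filter, 9 with the replicate block and 1 of 838 without the 2 libraries with most erythroid and plasma cell RNA. The fit without those 2 libraries kept 1 Sh3gl1-/- transitional library, so no call is read from its counts. The difference between genotypes in this comparison of stages gave 0 genes on leaving out any library (0 to 23 of all genes). It gave 1 of 335 with DESeq2 and 2 of 462 without a filter. It gave 0 of 0 with all 18 libraries and 1 of 99 with the replicate block. The genotype effect in transitional cells gave 0 to 5 genes (28 to 479), 8 of 1293 with DESeq2, 9 of 1426 without a filter, 0 of 144 with all 18 libraries and 2 of 90 with the replicate block. In follicular cells no library left out gave a call (32 to 112 of all genes), no filter gave 3 of 602, and all genes called were 352 with DESeq2, 49 with all 18 libraries and 212 with the block. After CD40L the values were 0 genes on leaving out a library (1 to 9), 3 of 216 without a filter, and 78, 82 and 21 of all genes with DESeq2, all 18 libraries and the block. The difference in CD40L response gave 0 genes on leaving out any library (0 to 1 of all genes), 2 of 30 with DESeq2 and 5 of 210 without a filter. The added difference between transitional and CD40L-cultured cells gave 0 genes (0 to 1), 2 of 10 with DESeq2, 8 of 111 without a filter and 1 of all genes with the block. The causes of these shifts were not tested. The replicate numbers did not pair the genotypes.

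Among called genes, Ebp, Elovl6 and Insig2 in the Sh3gl1-/- CD40L response each lost their call on leaving out single libraries, and Scd2 gained one in WT without WT CD40L replicate 1. Depth limited Fads2, which stood near or below 3 counts in untreated cells.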
